A study of Ogataea parapolymorpha DL-1 with 4 samples.

Results

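The autophagy genes of the methylotrophic yeast Ogataea parapolymorpha DL-1 were followed across 4 RNA sequencing libraries. They were found as the rows of the deposited gene table whose name is ATG and a number, or whose product description contains the stem autophag, and whose mean FPKM reaches 1. This gave 25 genes of 5448 in the table, and of 5342 that passed the same filter. All 25 matched by name, 18 of them also by description, and none fell below the filter. FPKM is a fragment number divided by the length of the transcript and by the size of the library. It is meant to let genes of different length be set side by side within a library. The share held by short genes differed between the libraries, as given below, so levels of short and long genes are compared with that limit. Between these libraries the sum of all FPKM differed, at 1.41e+06 and 1.33e+06 in the mutant in B medium and with cysteine and 3.22e+06 and 2.31e+06 in the wild type, so strain differences depend on how the libraries are scaled. The libraries came from a met4 mutant (leu2 met4::LEU2, in which MET4 is disrupted with LEU2) and a wild type (leu2 [LEU2], the same leu2 background carrying LEU2). Both strains were inoculated at an OD600 of 0.1 in rich YPD broth, grown to 0.3, and moved for 2 h either to B medium, labelled as limited in sulfur, or to B medium with 0.5 mM cysteine. Each of the 4 combinations of strain and medium has 1 library. No test, p-value or error is therefore given for any difference, and whether the mutant is 1 clone is not stated in the labels.

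Autophagy encloses cytoplasm or organelles in a double membrane, the autophagosome, and delivers them to the vacuole for breakdown. A kinase complex around Atg1 starts the process, a phosphatidylinositol 3-kinase and the membrane protein Atg9 build the membrane, and 2 ubiquitin-like systems attach Atg8 to it, while receptors choose the cargo. The vacuole then opens the delivered bodies and exports the products. In yeasts the pathway is known for its induction when nutrients run short, and in methylotrophic species for pexophagy, the removal of peroxisomes that are no longer needed. In budding yeast Met4 is the activator of sulfate assimilation and methionine synthesis. How the autophagy genes stand in a strain without it, with and without added cysteine, is the question of the comparisons below.

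No gene of the table bears the name MET4. The row zip1, named for the Met4-like factor of fission yeast and taken as its counterpart after its values had been seen, was listed at 0 in both mutant libraries, against 485 FPKM in wild-type B medium and 202 with cysteine. Its neighbour HPODL_05198 stood at 0 in the same libraries, so zip1 was not alone in this. LEU2 had 696 and 810.5 FPKM in the mutant and 403 and 396 in the wild type. Genes with a span under 400 bases held 24.5% and 19.4% of all FPKM in the mutant libraries in B medium and with cysteine, against 56.2% and 48.2% in the wild-type ones. FPKM do not carry the number of reads, so depth and counting error are unknown, and fewer cells expressing a gene cannot be told apart from less RNA per cell.

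All 25 genes were measured above 0 in all 4 libraries. Their median was 60.1 FPKM in the mutant in B medium and 55.4 with cysteine, and 50.6 FPKM in wild-type B medium and 56.1 with cysteine. The median of all genes compared was 64.0 and 64.5 FPKM in the 2 mutant libraries and 78.0 and 68.5 in the 2 wild-type libraries. The autophagy genes thus lay near the middle of the expression range, with a wide spread among themselves. By their mean over the libraries, ATG8 stood at percentile 95.2 of all genes compared, ATG33 at 93.3 and ATG30 at 88.4, while ATG25, ATG17 and ATG9 stood at 6.03, 6.35 and 9.73. The 3 most abundant held between 54.2% and 68.5% of the summed FPKM of the group in a library, so summed values follow them and medians are used here.

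**Figure D1:**
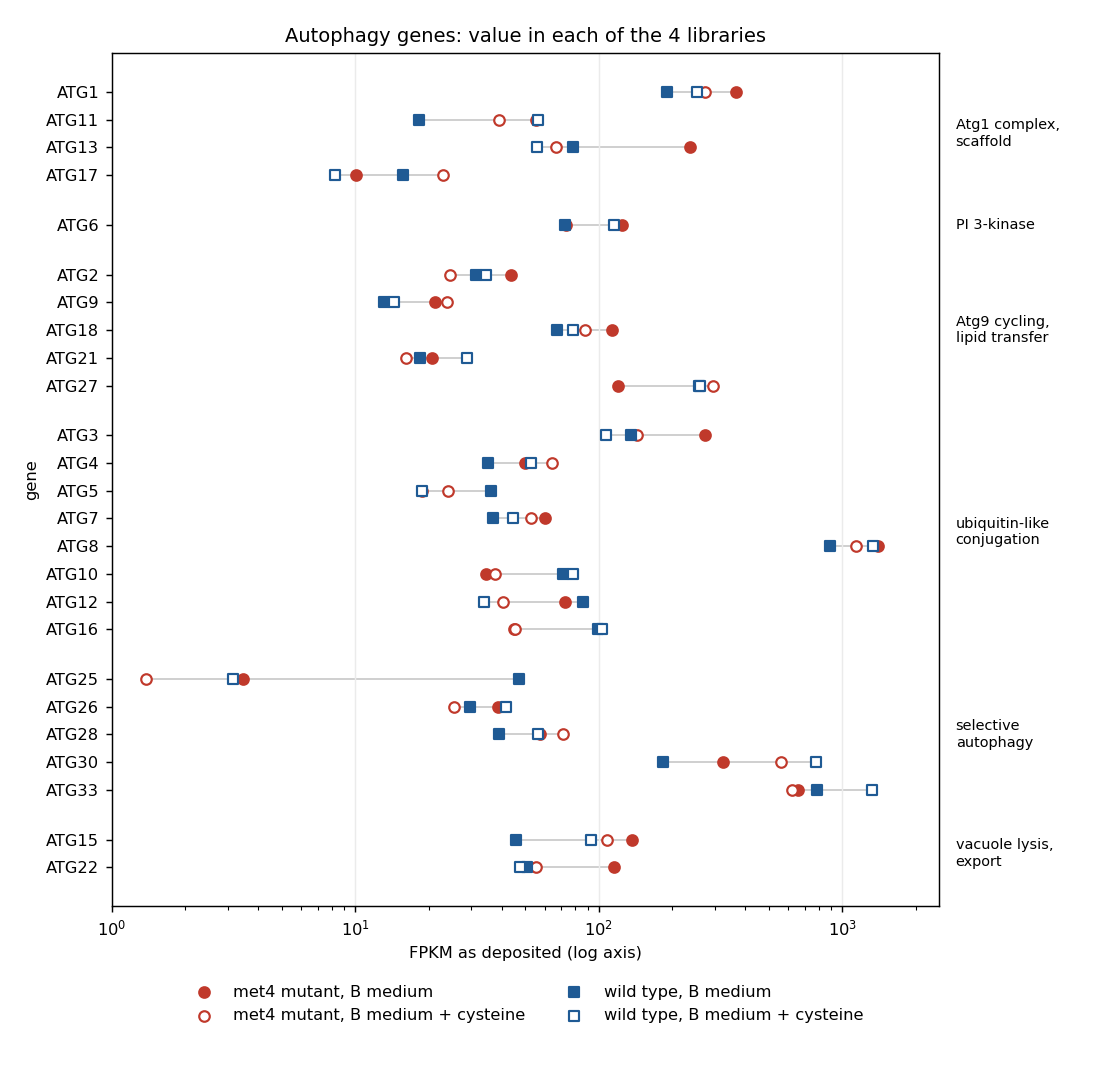
FPKM (log axis) of the 25 autophagy genes, ordered by role, in the met4 mutant (circles) and the wild type (squares), in B medium (filled) and in B medium with cysteine (open), 1 library each. The mutant in B medium lies furthest right for 10 genes and the wild type in B medium furthest left for 11, and ATG25 spans the widest range, from 1.38 to 47.1 FPKM.

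The genes varied somewhat less across the 4 cultures than the table did. The highest of the 4 values was under 2 times the lowest for 12 of 25 genes (48.0%), against 35.1% of all genes compared that had no value of 0. The median ratio of highest to lowest was 2.13 for the autophagy genes and 2.48 for those. The order of the libraries, taken over all 25 genes on values as deposited and not repeated after rescaling, was uneven. The mutant in B medium held the highest value of 10 autophagy genes (40.0%, against 21.5% of all genes compared), and the wild type in B medium the lowest of 11 (44.0%, against 20.9%). Both at once held for 6 genes (24.0%, against 6.33%), namely ATG1, ATG6, ATG7, ATG8, ATG15 and ATG18. Of these, only ATG15 had a highest value more than 2 times its lowest (3.01). The opposite order, with the wild type in B medium highest and the mutant in B medium lowest, was found in 0 of 25 autophagy genes and in 11.8% of all genes compared.

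**Figure D2:**
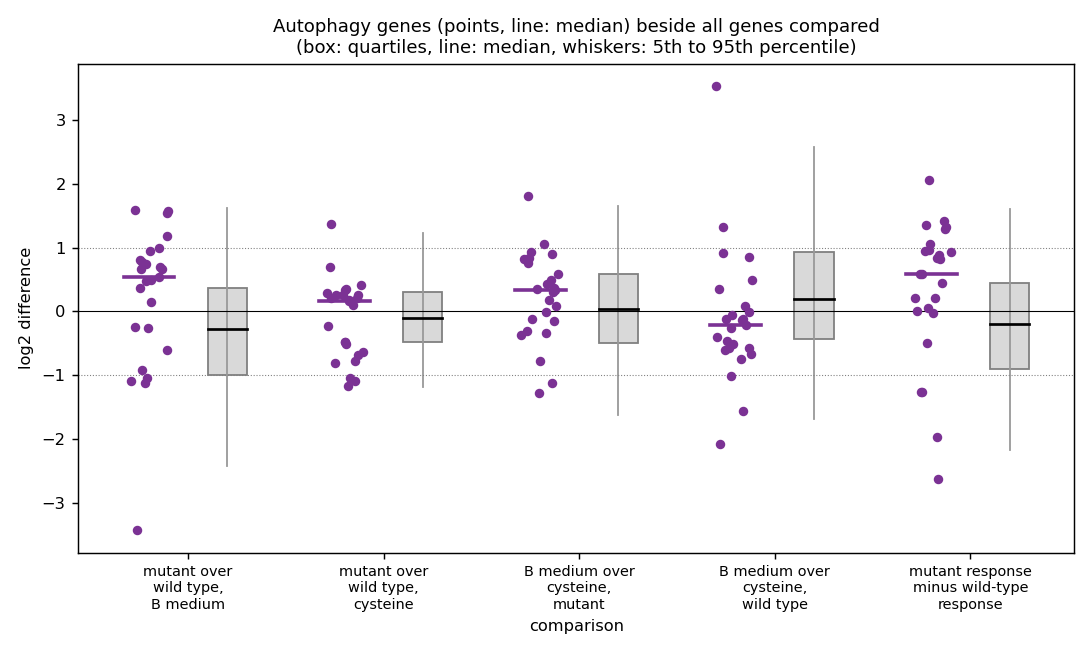
Differences of log2(FPKM + 1) of the 25 autophagy genes (purple points, with their median as a line) and of all 5342 genes compared (box for the quartiles, line for the median, whiskers from the 5th to the 95th percentile) in 5 comparisons. The median of the autophagy genes lies above that of all genes in the first 3 comparisons and in the last, and below it for the media in the wild type (-0.22 against 0.19).

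The kinase complex was led by ATG1, the kinase that starts autophagosome formation. ATG1 (HPODL_04379, chromosome V, 1078527 to 1080944, coordinates as deposited) had 368 FPKM in the mutant in B medium and 272 with cysteine, and 191 FPKM in wild-type B medium and 253 with cysteine. The mutant was thus higher than the wild type by 0.94 on the log2(FPKM + 1) scale in B medium and by 0.10 with cysteine, and B medium stood at 0.43 relative to cysteine in the mutant and at -0.40 in the wild type. ATG13 (HPODL_03959, chromosome V, 317950 to 320052), the subunit through which the TOR kinase restrains Atg1 in budding yeast, had 237 FPKM in the mutant in B medium and 66.6 with cysteine, and 78.4 FPKM in wild-type B medium and 55.6 with cysteine. A single library, the mutant in B medium, stood well above the other 3. It was 3.02 times the wild type in the same medium (log2 difference 1.58) and 3.55 times the mutant with cysteine (1.81).

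The scaffolds of the complex did not share that pattern. ATG11 (HPODL_05134, chromosome II, 682972 to 686892), the scaffold of selective autophagy, had 55.1 FPKM in the mutant in B medium and 39.0 with cysteine, and 18.2 FPKM in wild-type B medium and 56.1 with cysteine. Here the wild type in B medium was the low library, 3.08 times below its partner with cysteine (-1.57) and 3.02 times below the mutant in B medium (1.55). ATG17 (HPODL_00301, chromosome III, 246741 to 248030), the scaffold of starvation-induced autophagy in budding yeast, was a low gene with 10.04 FPKM in the mutant in B medium and 23.0 with cysteine, and 15.7 FPKM in wild-type B medium and 8.28 with cysteine. In the mutant it alone of the 4 genes of the complex was lower in B medium (-1.12), and in the wild type it was higher there (0.85). MST1, a mitochondrial tRNA synthetase gene, lies 10 bases from ATG17 on the other strand. It had 22.6 and 181 FPKM in the mutant and 24.7 and 209 in the wild type, in B medium and with cysteine, and its part in the ATG17 values was not tested.

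ATG6 (HPODL_04150), the Beclin subunit of the phosphatidylinositol 3-kinase complex, had 125 FPKM in the mutant in B medium and 73.4 with cysteine, and 72.4 FPKM in wild-type B medium and 115 with cysteine. The 2 strains were mirror images, each with its higher level in the medium in which the other had its lower one. The mutant was higher in B medium (0.78) and lower with cysteine (-0.64), each within 2-fold, while its response exceeded that of the wild type by 1.42.

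Of the genes for Atg9 cycling and lipid transfer, 4 of 5 were within 2-fold in all 4 comparisons of libraries. ATG9, the membrane protein carried to the growing autophagosome, had 21.2 FPKM in the mutant in B medium and 23.7 with cysteine, and 13.1 and 14.4 FPKM in the wild type, so that the mutant was higher in both media (0.66 and 0.69). ATG2, the lipid transfer protein, had 43.6 and 24.4 FPKM in the mutant and 31.2 and 34.3 in the wild type. ATG18 and ATG21, related binders of phosphatidylinositol 3-phosphate, had 113 and 20.6 FPKM in the mutant in B medium, 87.4 and 16.2 with cysteine, 67.2 and 18.5 in the wild type in B medium, and 78.3 and 28.6 with cysteine. The exception was ATG27 (HPODL_01559, chromosome VI, 773383 to 774237), a membrane protein of Atg9 traffic in budding yeast. It had 120.5 FPKM in the mutant in B medium and 293 with cysteine, and 257 FPKM in wild-type B medium and 259.9 with cysteine, so 1 library was low and the other 3 lay close together. The difference was -1.28 between the media in the mutant and -1.09 between the strains in B medium. The second value was within 2-fold once the libraries were rescaled or the gene length trend was removed.

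Among the 8 genes of ubiquitin-like conjugation, ATG8 was by far the most abundant. Its product is the ubiquitin-like protein joined to the autophagosome membrane. ATG8 (HPODL_03718, chromosome IV, 1205391 to 1205807) had 1406 FPKM in the mutant in B medium and 1140.2 with cysteine, and 891 FPKM in wild-type B medium and 1335 with cysteine. All its differences were within 2-fold, at 0.66 and -0.23 for the mutant over the wild type in B medium and with cysteine, and at 0.30 and -0.58 for B medium over cysteine in the mutant and the wild type. ATG3, which conjugates Atg8, had 273 FPKM in the mutant in B medium and 143 with cysteine, and 136 and 107 FPKM in the wild type. Its strain difference in B medium lay just under 2-fold. ATG7, the activating enzyme of both systems, had 60.1 and 52.9 FPKM in the mutant and 36.6 and 44.3 in the wild type, and ATG4, the protease that processes Atg8, 49.7 and 64.4 in the mutant and 35.1 and 52.6 in the wild type.

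The Atg12 branch of conjugation was lower in the mutant for some genes. ATG10, the conjugating enzyme for Atg12, had 34.3 and 37.3 FPKM in the mutant and 71.5 and 78.1 in the wild type, in B medium and with cysteine. ATG16, the partner of the Atg12 and Atg5 conjugate, had 45.0 and 45.3 FPKM in the mutant and 99.2 and 103 in the wild type. For both genes the mutant libraries lay below the wild-type libraries by just over 2-fold in each medium as deposited (-1.04 and -1.04 for ATG10, -1.12 and -1.17 for ATG16), and the medium made almost no difference within a strain. ATG12, the ubiquitin-like protein itself, followed the medium instead, with 72.6 FPKM in the mutant in B medium and 40.4 with cysteine, and 86.0 FPKM in wild-type B medium and 33.8 with cysteine (0.83 in the mutant and 1.32 in the wild type). ATG5, to which Atg12 is joined, had 18.8 and 24.1 FPKM in the mutant and 36.2 and 18.7 in the wild type, so the wild type in B medium was its high library (0.92 over cysteine). The ATG5 row starts 68 bases from IDH2 on the same strand, which had 887 FPKM in that library and between 128 and 166 in the other 3; its part in the ATG5 value was not tested.

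The widest range of all 25 genes was that of ATG25, a gene of selective autophagy, with 34.1 times between its highest and lowest library. ATG25 (HPODL_01515, chromosome VI, 709876 to 710958), a coiled-coil protein of pexophagy in Hansenula polymorpha, had 3.45 FPKM in the mutant in B medium and 1.38 with cysteine, and 47.1 FPKM in wild-type B medium and 3.16 with cysteine. The wild type in B medium thus stood alone, at 14.9 times its value with cysteine (3.53) and 13.7 times the mutant in B medium (-3.43), while the mutant had a difference of 0.90 between the media at values of a few FPKM. Its nearest neighbour AKR1, 11 bases away on the other strand, had 69.9 and 49.2 FPKM in the mutant and 71.8 and 52.2 in the wild type, and did not stand out in wild-type B medium. ATG30 (HPODL_02312, chromosome I, 826184 to 827497), the pexophagy receptor of Komagataella, had 324 FPKM in the mutant in B medium and 559 with cysteine, and 184 FPKM in wild-type B medium and 782 with cysteine. It was lower in B medium in both strains (-0.79 in the mutant and -2.08 in the wild type, there 4.24-fold). These 2 pexophagy genes therefore lay in opposite directions between the media in the wild type.

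ATG33, a mitochondrial membrane protein needed for mitophagy in budding yeast, had 656 and 621 FPKM in the mutant and 791 and 1323 in the wild type, in B medium and with cysteine. The wild type with cysteine was its high library, and the mutant stood at -1.09 relative to it. ATG26, the sterol glucosyltransferase that pexophagy needs in Komagataella, had 38.7 and 25.5 FPKM in the mutant and 29.7 and 41.6 in the wild type, and ATG28, a coiled-coil pexophagy protein there, 57.2 and 71.1 in the mutant and 39.1 and 56.3 in the wild type. Neither passed 2-fold in a comparison of libraries.

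At the vacuole, both genes were higher in the mutant in B medium. ATG15 (HPODL_03503, chromosome IV, 853432 to 854961), the lipase that opens autophagic bodies, had 137 FPKM in the mutant in B medium and 108 with cysteine, and 45.6 FPKM in wild-type B medium and 93.0 with cysteine. The wild type in B medium was low, at 3.01-fold below the mutant (1.57) and 2.04-fold below its partner with cysteine (-1.01). ATG22 (HPODL_03790, chromosome V, 35702 to 37381), a vacuolar exporter of amino acids in budding yeast, had 116 FPKM in the mutant in B medium and 55.4 with cysteine, and 50.6 FPKM in wild-type B medium and 47.6 with cysteine. Its mutant library in B medium alone was high, as for ATG13 (1.18 over the wild type and 1.05 over cysteine).

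**Figure D3:**
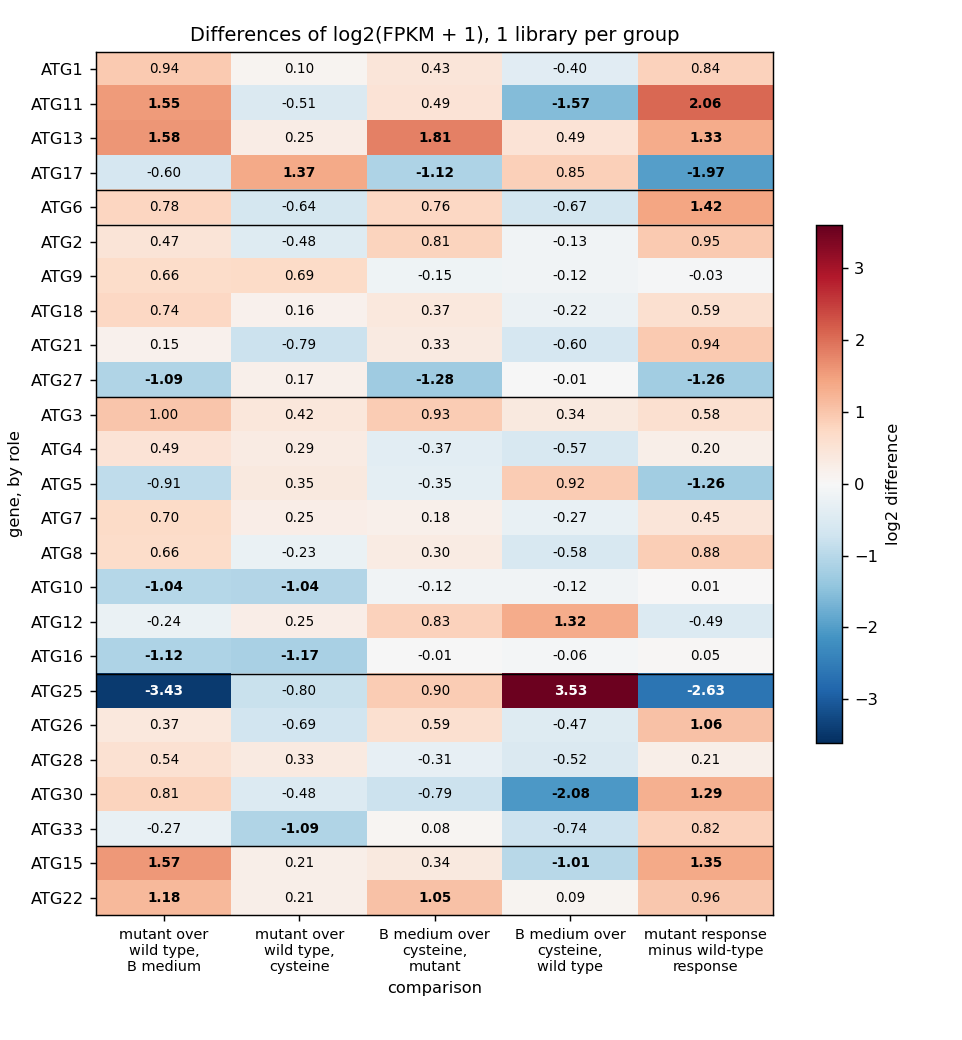
Differences of log2(FPKM + 1) of the 25 autophagy genes (rows, grouped by role with black lines) in 4 comparisons of libraries and in the difference of the 2 responses (columns), 1 library per group, with values of at least 2-fold in bold. ATG25 has the strongest colours (-3.43, 3.53 and -2.63), and ATG11, ATG13, ATG15 and ATG22 are at least 2-fold higher in the first column, with ATG3 just short of it.

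Counted over the group, the mutant against the wild type in B medium gave 4 genes at least 2-fold higher (ATG11, ATG13, ATG15 and ATG22) and 4 at least 2-fold lower (ATG10, ATG16, ATG25 and ATG27). That is 16.0% in each direction, against 10.5% higher and 24.9% lower over all genes compared. The median difference was 0.54, with 17 of 25 genes above 0, against -0.27 for all genes. ATG10, ATG16 and ATG27 lost 2-fold under each of the 4 rescalings. They took the other sign, near 0, when every library was brought to the same sum (TPM). The 4 higher genes and ATG25 stayed past 2-fold. All 4 rescalings moved the mutant up against the wild type, by 0.23 to 1.14 in the median of all genes. Genes called higher could therefore not be lost under them. Scaling also set the number of higher genes, which was 8 with median-of-ratios scaling, 9 with upper-quartile scaling and 17 with TPM. These are 32%, 36% and 68% of the group, against 14.9%, 16.0% and 44.3% of all genes compared. Under TPM the median of all genes moved as well, to 0.87. The distance of the group's median above the median of all genes was 0.81 as deposited and between 0.66 and 0.82 under the alternatives. Scaling a library moves both medians by nearly the same amount, so the 4 rescalings could hardly change this distance. The value of 0.66 came with the length trend removed.

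With cysteine, the strains differed less. ATG17 alone was at least 2-fold higher in the mutant (1.37), and ATG10, ATG16 and ATG33 were at least 2-fold lower. These are 4% and 12% of the group, against 6.85% and 7.41% of all genes compared, and the medians were 0.16 and -0.10. The 3 lower genes were within 2-fold when the trend with gene length was removed, and ATG17 was not. As deposited, ATG10 and ATG16 were at least 2-fold lower in the mutant in both media, a pattern not counted over all genes. With cysteine, ATG10 was within 2-fold under each of the 4 rescalings, and ATG16 under upper-quartile and TPM scaling.

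In the mutant, B medium against cysteine gave 2 genes at least 2-fold higher (ATG13 and ATG22) and 2 at least 2-fold lower (ATG17 and ATG27). These are 8% each, against 13.3% higher and 12.1% lower over all genes compared. The median was 0.33, with 16 of 25 genes above 0, against 0.04 for all genes. ATG22 stayed just under 2-fold with TPM scaling and with the length trend removed, as did ATG17 with a pseudocount of 5 FPKM. Both shares of the group lay below those of the table.

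In the wild type, the same comparison gave 2 genes at least 2-fold higher in B medium (ATG12 and ATG25) and 3 at least 2-fold lower (ATG11, ATG15 and ATG30). These are 8% and 12.0%, against 23.6% and 13.0% over all genes compared, so the share of higher genes lay below that of the table. The median was -0.22, with 18 of 25 genes below 0, against 0.19 for all genes. ATG12 was within 2-fold with TPM scaling (0.83) and ATG15, at the edge, with a pseudocount of 5 FPKM (-0.95).

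The difference of the 2 responses, the mutant's minus the wild type's, was at least 2-fold in the positive direction for ATG6, ATG11, ATG13, ATG15, ATG26 and ATG30 and in the negative direction for ATG5, ATG17, ATG25 and ATG27. These are 24.0% and 16.0% of the group, against 11.2% and 22.2% of all genes compared, with medians of 0.59 and -0.20. The responses had opposite signs in 13 genes. In 11 of them (44.0%, against 13.9% of all genes compared) B medium was below cysteine in the wild type and above it in the mutant, among them ATG1, ATG6, ATG8, ATG11 and ATG15. The reverse held for 1049 of the 5342 genes compared and, in the group, for ATG5 and ATG17. Many of these values are small, and each rests on single libraries, with the wild-type library in B medium entering both the medium and the strain comparison.

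**Figure D4:**
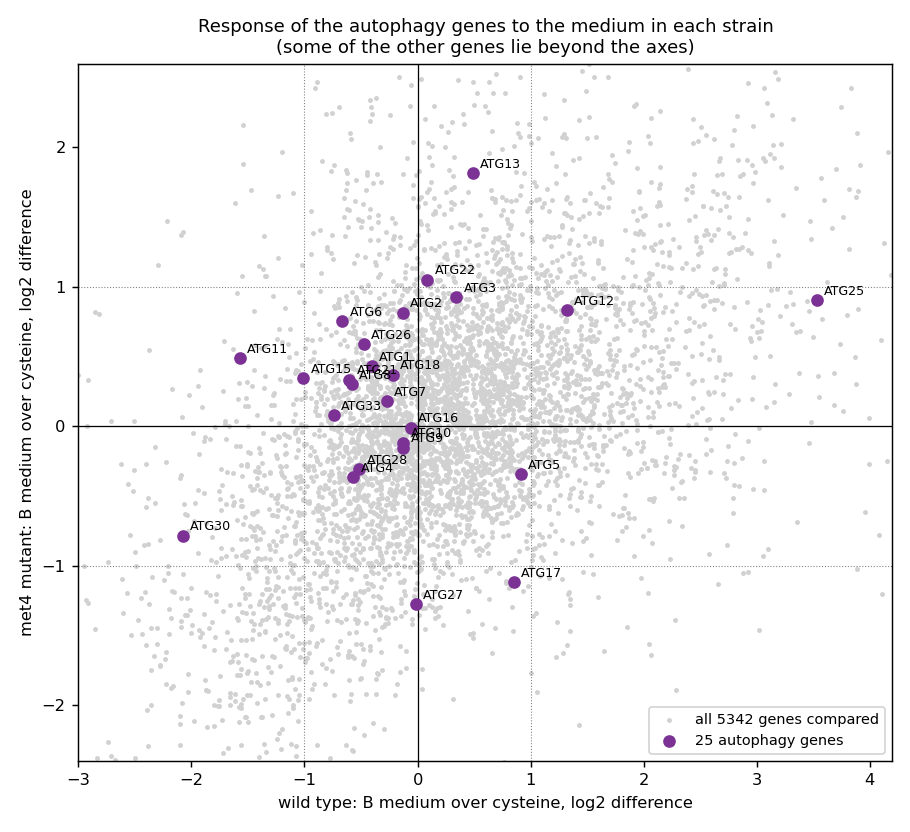
Log2 difference of B medium over cysteine in the wild type (horizontal axis) and in the met4 mutant (vertical axis) for the 25 autophagy genes (purple, named) and all genes compared (grey), with dotted lines at 2-fold. The upper left holds 11 named genes, and outside the lines lie ATG11, ATG12, ATG15, ATG25 and ATG30 for the wild type and ATG13, ATG17, ATG22 and ATG27 for the mutant.

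Short genes were lower in the mutant across the table, so the strain differences are also given by length. The autophagy genes had a median span of 1332 bases, from 417 for ATG8 to 5298 for ATG2, against 1200 bases for all genes compared. In B medium the 7 autophagy genes under 900 bases had a median strain difference of -0.91, against -0.68 for all genes of that length, and 6 of them were below 0, with ATG8 the exception. The 12 genes of 900 bases or more but under 2000 had a median of 0.72 against -0.14, and the 6 genes of 2000 bases or more one of 0.80 against -0.11, the 6 all above 0. Relative to a running median over genes of like span, ATG8 stood 1.79 above in B medium, more than ATG11 (1.67), ATG13 (1.64) or ATG15 (1.54), while ATG10 and ATG16 were at -0.30 and -0.60. The autophagy genes of 900 bases or more, among them ATG1, ATG11, ATG15 and ATG22, thus lay above genes of like length in the mutant in B medium, apart from ATG17 and ATG25 (-0.48 and -3.11).

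**Figure D5:**
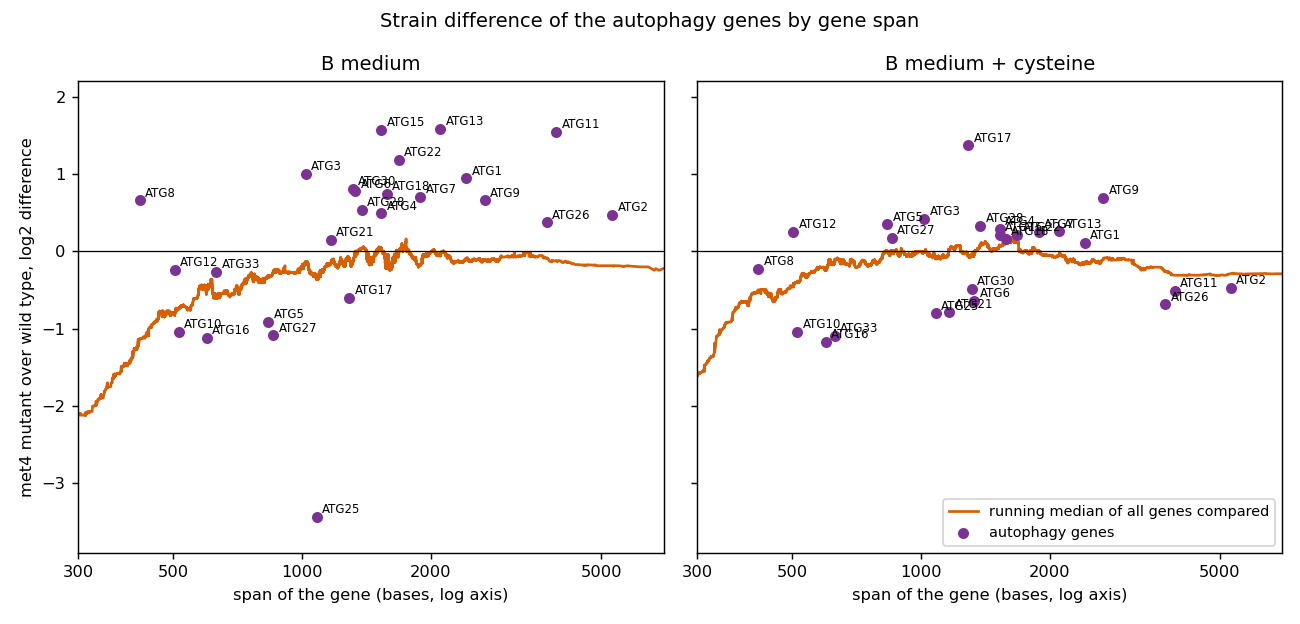
Log2 difference of the met4 mutant over the wild type in B medium (left) and in B medium with cysteine (right) against gene span in bases (log axis), for the 25 autophagy genes (points) and as a running median of all genes compared (line). In B medium the line lies lower for short genes, relative to it ATG8, at 417 bases, stands at 1.79 and ATG25 at -3.11.

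The genes were spread over 7 chromosomes, with 8 of 25 on chromosome V (32.0%, against 15.0% of the 5448 genes in the table), 5 on IV, 4 each on VI and VII, 2 on II and 1 each on I and III. The nearest pair, ATG1 and ATG4 on chromosome V, lay 18009 bases apart. The genome build is not stated in the labels or the file, and the span of all 25 genes equals that of the same locus tag in the RefSeq annotation of assembly Hansenula_2. Within 50 bases of another gene, or overlapping it, were 18 of the 25, a share that was not worked out for all genes. ATG7 and ATG16 each overlapped a neighbour by 4 bases. The sources used here do not say whether counting used the strand, so reads of such neighbours cannot be told apart from those of the named gene where transcripts run past the annotated ends.

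The authors' deposited table marks genes at a threshold of 0.05 wherever a wild-type and a mutant library are paired, which gives 4 pairings, and it marks 0 of the 25 autophagy genes in any of them. Marks are carried in the authors' deposited table by 13, 11, 13 and 57 of the 5448 genes in the pairings of wild-type B medium with the mutant in B medium, wild-type B medium with the mutant with cysteine, wild-type cysteine with the mutant in B medium, and both strains with cysteine.

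The other genes of the pathway are given from lists of names. To be read beside their counts, 10.5% of all genes compared were at least 2-fold higher and 24.9% lower in the mutant than in the wild type in B medium (median -0.27), and 23.6% were higher and 13.0% lower in B medium than with cysteine in the wild type (median 0.19). Of 24 genes of TOR and nutrient signalling, 2 were at least 2-fold higher and 2 lower in the mutant than in the wild type in B medium (median -0.22), and 6 were higher and 1 lower in B medium than with cysteine in the wild type (25% and 4.17%, median 0.44). The share of higher genes was near that of the table. GCN4, the activator of amino acid synthesis in budding yeast, had 9881 FPKM in the mutant in B medium and 6473 with cysteine, and 3204 FPKM in wild-type B medium and 10483 with cysteine. It thus had a low library in wild-type B medium, as ATG11 and ATG15 did. IML1, a subunit of a complex that restrains TOR there, had 61.3 and 23.2 FPKM in the mutant and 23.3 and 36.9 in the wild type. The kinase and its partner of the phosphatidylinositol 3-kinase complex, VPS34 and VPS15, were within 2-fold in all 4 comparisons of libraries, with 24.7 and 6.91 FPKM in the mutant in B medium and 17.0 and 7.20 in the wild type in B medium.

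Of 20 genes of membrane supply and sorting, 1 was at least 2-fold higher in the mutant in B medium and 5 lower (median -0.28), which are 5% and 25%, the second near the share of the table. The largest differences were those of TRS33 (-1.84), BET3 (-1.75) and trs20 (-1.56), subunits of the TRAPP tethering complex, and of COG4 (-1.43), a subunit of a Golgi tethering complex. The higher gene was the SNX41 row HPODL_04328, a sorting nexin (1.18), while the other 3 sorting nexin rows were within 2-fold, at 0.91 for SNX4, 0.19 for SNX3 and 0.06 for the other SNX41 row. Relative to genes of like length, 2 of the 20 were at least 2-fold higher and 3 lower, against 15.0% and 16.0% of all genes compared. TRS33, BET3, trs20 and COG4 stood at -1.25, -1.27, -0.44 and -1.31 on that measure. Of 14 vacuole fusion genes, 0 were at least 2-fold higher and 1 lower as deposited (VPS33, -1.04), with a median of -0.28.

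Among 11 genes listed as vacuolar hydrolases, 2 were at least 2-fold higher and 1 lower in the mutant in B medium (median 0.31). PRB1, the vacuolar serine protease cerevisin, had 4740 FPKM in the mutant in B medium and 1611 with cysteine, and 1887 FPKM in wild-type B medium and 1539 with cysteine. This was again a single high library, the mutant in B medium, as for ATG13 and ATG22. The 2 CPS1 rows, carboxypeptidase S, differed in opposite directions (2.27 for HPODL_02377 and -1.47 for HPODL_01101), and rows that share a name can share reads. The list's nth1 is an endonuclease and no vacuolar enzyme. APR1, the vacuolar aspartic protease, was added after its values were seen and had 2722 and 2252 FPKM in the mutant and 1242 and 1566 in the wild type. Of 16 genes that regulate ATG transcripts in budding yeast, 1 was at least 2-fold higher and 2 lower in the mutant in B medium (median -0.27). These were the HAP3 row HPODL_02370 (2.54), the other HAP3 row, just past 2-fold lower, and GAT1, a GATA factor of nitrogen use (-1.84).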

How the data were processed

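RNA was extracted with hot phenol and cleaned on columns, and libraries were made with standard Illumina protocols, per the labels' protocols. The submitters' processing notes name TopHat, Cufflinks 2.1.1 and Cuffdiff, which are a spliced read aligner, a transcript quantifier and its difference test. The deposited values are FPKM per gene in 1 table for the 4 libraries, normalized by the authors for length and library size. The same table carries the authors' marks of difference, per the file headers. The sources used here name no build, strand setting or filter. Low FPKM showed no steps of whole reads, so depth is unknown and no counting interval is given.

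Genes whose mean FPKM reached 1 were compared on the log2(FPKM + 1) scale, on which changes of low genes come out too small. A difference of at least 1 was counted as 2-fold. Ratios of FPKM carry no pseudocount. Length-adjusted values subtract the running median of genes ordered by span, taking 100 to either side. Alternatives were pseudocounts of 0.1 and 5 FPKM, other filters, a removed length trend, and autophagy genes matched by name only. Others were scaling by TPM, by upper quartile or by median of ratios, and scaling to genes of at least 600 bases. Each group has 1 library, so no model was fitted. The calculations were checked on the mean FPKM of each gene, with known differences put in without noise and read back. This checks the arithmetic only. The calculations were run in Python 3.11.15 with pandas 2.3.3, NumPy 2.4.6 and Matplotlib 3.10.9. Genes named in full were all 25 members, and from each list mostly genes among the 4 with the largest differences in a comparison; APR1, nth1 and further sorting nexins were named after their values were seen. The members and lists were chosen with earlier results of these data known. Further ATG names listed by role, such as ATG14 and ATG29, were not analysed here.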

Additional observations from a re-analysis of the deposited data

Results flagged for a closer look

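In 13 of the 25 genes the difference between B medium and cysteine had opposite signs in the 2 strains. Of the 5342 genes compared, 740 had B medium below cysteine in the wild type and above it in the mutant, and 1049 the reverse. With 1 library per group the difference between the strains was not tested. The response of the mutant exceeded that of the wild type, on the log2(FPKM + 1) scale, by 2.06 for ATG11, 1.42 for ATG6, 1.35 for ATG15 and 1.06 for ATG26. It did so by less than 2-fold for ATG2 (0.95), ATG21 (0.94), ATG8 (0.88), ATG1 (0.84), ATG33 (0.82), ATG18 (0.59) and ATG7 (0.45). ATG17 (-1.97) and ATG5 (-1.26) had the opposite order, with B medium below cysteine in the mutant and above it in the wild type. In ATG33 the response of the mutant itself was 0.08, against -0.74 in the wild type.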

How the results depend on the processing

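Of 31 differences of at least 2-fold among the autophagy genes, 18 held under all 10 alternative settings and 13 were lost under at least 1. Some of the 10, namely the filters and the match by name only, could not change any autophagy value. The 31 count a gene once per comparison, and the comparisons share libraries. For the mutant over the wild type in B medium, the genes at least 2-fold higher and lower numbered 8 and 1 with median-of-ratios scaling, 9 and 1 with upper-quartile scaling, 17 and 1 with TPM (median 1.66), 8 and 1 with scaling to long genes, and 7 and 1 with the length trend removed. With TPM this comparison took the other sign for ATG10 (0.13), ATG16 (0.051) and ATG27 (0.10). With cysteine, 1 gene was lower with median-of-ratios scaling and 0 with upper-quartile scaling and with the trend removed. Of all genes compared, 6.08%, 5.0% and 3.59% were lower there, in that order. With TPM 9 were higher and 0 lower (median 0.94), against 27.7% and 2.21% of all genes. In the mutant, 1 gene was lower in B medium with a pseudocount of 5 FPKM, against 10.7% of all genes. With TPM and with the trend removed, 1 was higher in each, against 11.6% and 12.4% of all genes. In the wild type, TPM gave 1 higher and 6 lower, against 14.1% and 21.1% of all genes. The responses differed positively for 10 genes with median-of-ratios scaling, 11 with scaling to long genes and 12 with TPM, which left 2 negative. Of all genes compared, 13.8%, 14.4% and 18.6% differed positively under these settings, and 12.6% negatively with TPM. TPM moved the median of all genes by 1.14 between the strains in B medium and by 0.76 with cysteine. It divides each library by its own sum of FPKM, and in each medium that sum was larger in the wild type. Why the sums differed was not tested. Filters on low genes changed no autophagy value, as all 25 passed. The match by name only changed none either, as all 25 matched by name. No paired analysis was possible because each group has 1 library, and none could be left out. Depth is unknown, so low values, such as those of ATG25 in the mutant and of ATG17, are given without a counting error.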

Other observations

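Among 16 genes of the vacuolar ATPase, the pump that acidifies the vacuole, 0 were at least 2-fold higher and 8 lower in the mutant than in the wild type in B medium (50% lower, median -0.94), against 24.9% lower and a median of -0.27 over all genes. With cysteine 0 were higher and 2 lower (12.5%, against 7.41% of all genes). Relative to genes of like length, 1 of the 16 was higher and 6 lower in B medium, against 15.0% and 16.0% of all genes compared. VMA21, an assembly factor with a span of 216 bases, had 673 FPKM in the mutant in B medium and 419 with cysteine, and 17035 FPKM in wild-type B medium and 6810 with cysteine. Its strain difference in B medium was -4.66, and -1.90 relative to genes of like length. VMA10, a stalk subunit, stood at -3.02 and at -2.21 relative to genes of like length.

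A list of 13 genes held 10 amino acid transporters of the vacuole and VTC1, VTC2 and VTC4, subunits of the vacuolar complex that makes polyphosphate. Of the 13, 6 were at least 2-fold higher and 0 lower in B medium than with cysteine in the wild type (46.2% higher, against 23.6% of all genes). In the mutant 4 were higher and 0 lower (30.8%, against 13.3%). Relative to genes of like length, 4 were higher and 0 lower in the wild type, against 19.4% and 16.0% of all genes compared. Among the 6 were the AVT6 rows and the YPQ2 rows, and rows that share a name can share reads. Between the strains in B medium, 1 of the 13 was higher and 2 lower as deposited (7.69% and 15.4%, against 10.5% and 24.9% of all genes). VTC1, which is 1 of the 6, was 1 of these lower genes (-1.72, and -0.59 relative to genes of like length), and VBA1, a transporter of basic amino acids, was the other (-1.21). The higher gene was the AVT4 row HPODL_02812, a vacuolar exporter in budding yeast (1.40). The largest difference between the media in the wild type was that of the YPQ2 row HPODL_05264 (2.94), a low gene with 14.9 FPKM in the mutant in B medium and 5.73 with cysteine, and 14.0 FPKM in wild-type B medium and 0.944 with cysteine.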
